A study of Oryctolagus cuniculus with 6 samples.

Results

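The potassium channel genes of the rabbit retina were compared between 3 normal retina samples and 3 retina samples from rabbits with proliferative vitreoretinopathy (PVR). They were taken as all genes in the files whose symbol is KCN, one letter of A to H, J, K, M, N, Q, S, T, U or V, and a number, apart from KCNJ10, which the rule leaves out. This gave 78 of the 28788 genes. They fall into 8 classes, which are 16 pore-forming subunits of the Kv1-Kv4 families, 5 of Kv7, 8 of Kv10-Kv12, 10 modifier subunits, 14 inward rectifiers, 15 two-pore channels, 5 calcium- or sodium-activated channels and 5 KCNE beta subunits. The alpha subunit of the large-conductance calcium-activated channel, KCNMA1, does not match this rule and is described with the partner genes.

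Potassium channels set the resting potential of neurons and glia and end their depolarizations. Voltage-gated Kv channels open on depolarization, and inward rectifiers and two-pore channels carry current near rest. Modifier subunits form no channel alone, but alter the Kv2 channels they join. The modifier Kv8.2 (KCNV2) belongs to the channels of the photoreceptor inner segment, and its loss causes a cone dystrophy with an altered rod response.

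For the PVR model, the sclera was punctured near the corneal margin of adult rabbits, some vitreous was withdrawn and platelet-rich plasma was injected into the vitreous cavity. The normal samples are labelled as normal retina, with no sham puncture named. The strain, the time from injection to collection and whether each sample is 1 animal are not given in the sources used here, so the p-values measure the spread between these samples, which may be technical. Polyadenylated RNA was sequenced, and the counted reads per sample ranged from 31904593 to 43035080.

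The 7 rod genes in the files summed to between 28830 and 47820 CPM (counts scaled to the library size of the sample, here with TMM factors) in every sample, as the label of retina requires. Normal replicate 2 stood apart in lens genes, which summed to 32730 CPM over 9 genes, against 12.2 to 15.6 CPM in the other normal samples and 262 to 300.2 CPM in PVR. Oligodendrocyte markers also differed among the normal samples, from 264 to 1259 CPM over 12 genes, and were at 151 to 161 CPM in PVR. In bulk samples, fewer cells of a type and less RNA per cell cannot be told apart.

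With edgeR, none of the potassium channel genes passed an adjusted p of 0.05 in PVR against normal. Of the 78 genes, 61 passed edgeR's filter on low counts and were tested, and 0 of the 61 were called by its quasi-likelihood test, against 1.7% of all 18697 genes tested (1.01% with a log2 fold change beyond 1 as well), or 1.09% higher and 0.615% lower. At an unadjusted p under 0.05 there were 8 of the 61 (13.1%), against 21.2% of all genes, of which 3 were higher (11.3% of all genes were so) and 5 lower (9.94% of all genes). Of the other tools run on all 6 samples, DESeq2 is the one that the study's methods name. It called 3 members, KCNC4 and KCNS3 among them, all lower, where it called 9.69% of all genes. With a log2 fold change beyond 1 as well, it called 1 member, KCNS3, and 3.93% of all genes. Limma on log2(FPKM + 0.1) called 1 member, KCNE4, higher and also beyond that fold change, where it called 1.36% of all genes (0.899% beyond the fold change), and limma-voom called 0, where it called 1.15% (0.69%). The groups did not overlap in CPM for 16 of the 61 members, or 26.2%, close to the 28.0% of all genes. Of these, 8 were higher in PVR (KCNA3, KCNA4, KCNA5, KCNE4, KCNH7, KCNK5, KCNK6 and KCNQ5), a direction that 13.4% of all genes had, and 8 were lower (among them KCNA6, KCNC4, KCNG4, KCNH6, KCNJ14, KCNS3 and KCNV2), against 14.6% of all genes. On the scale of FPKM (fragments scaled to the length of the gene and to the total of the sample), this held for 15 members, of which 13 were among the 16, and for 26.7% of all genes.

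The intervals show how large a difference these samples leave possible. For 38 of the 61 genes the 95% interval of the log2 fold change lay within a 2-fold change in either direction, which is 62.3% of the members and 61.4% of all genes. The width followed the level of the gene. All 21 members with a mean FPKM of at least 5 had such an interval, with bounds from -0.74 to 0.82 and fitted log2 fold changes between -0.39 and 0.39. Of the 24 tested members with a mean FPKM under 1, 4 had one, and the median standard error was 0.47 against 0.11 for the abundant members. The fitted values leaned lower in PVR for abundant members (14 of 21, median -0.12) and higher for scarce ones (17 of 24, median 0.32). The same held for all genes at those levels, with medians of -0.08 and 0.29. It did not hold at a mean FPKM from 1 to under 5. There 12 of 16 members were lower in PVR (median -0.12), against 45.7% of all genes (median 0.05).

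**Figure D1:**
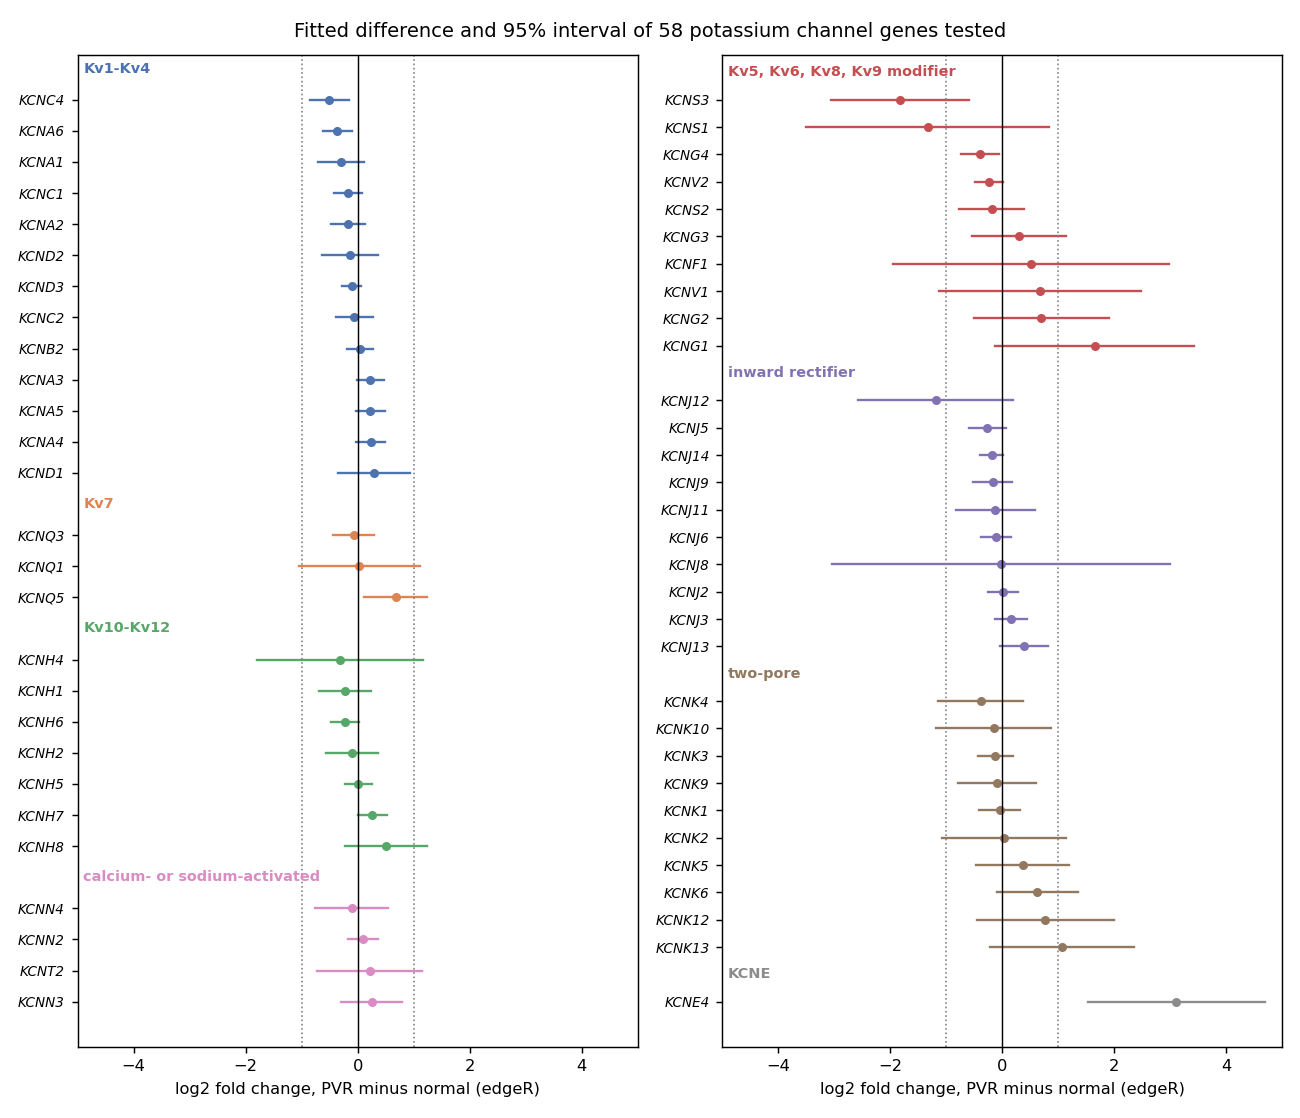
Fitted log2 fold change (PVR minus normal, x axis) of 58 potassium channel genes tested, by class, with its 95% interval from edgeR. Dotted lines mark a 2-fold change, and 36 of the 58 intervals lie between them, while those of KCNS3 and KCNE4 lie furthest to either side among the intervals that leave out 0.

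By class, the medians of the fitted log2 fold changes were close to that of all genes tested, -0.01. The median was -0.13 over 14 tested Kv1-Kv4 genes, 0.03 over 5 Kv7 genes, -0.10 over 7 Kv10-Kv12 genes and 0.05 over 10 modifier genes. It was -0.12 over 10 inward rectifiers, -0.01 over 10 two-pore channels and 0.15 over 4 calcium- or sodium-activated channels. A single KCNE gene was tested, so that class has no median. Over all 61 members the median was -0.06, with 28 higher and 33 lower (51.1% of all genes tested were lower).

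Levels per length ranged widely over the members. KCNV2 had a mean FPKM of 123 ± 11.3 in normal and 109 ± 7.70 in PVR retina (SD, n = 3 each), and the inward rectifier KCNJ14 had 53.9 ± 5.11 and 49.5 ± 0.693 (FPKM, SD, n = 3 each). Next in order came KCNA5, KCND3, KCNH5, KCNJ9, KCNA6 and KCNK1, whose ranges over the 6 samples overlapped with those of their neighbours in this order. Another 16 members had a mean FPKM from 1 to under 5, and 41 were under 1. FPKM depends on the length that the annotation gives a gene. KCNK1 reached its level with 374 to 569 counts on a length of 1043 bases, whereas KCNA1, with 636 to 1142 counts, was at 2.47 to 3.92 FPKM on 7484 bases.

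**Figure D2:**
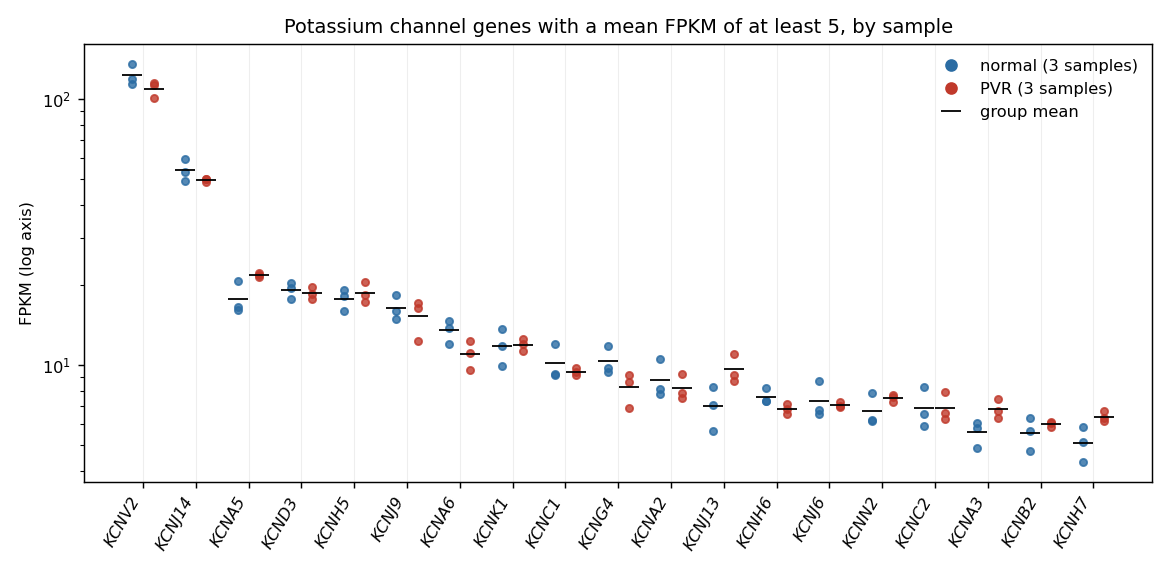
FPKM (log axis) of 19 potassium channel genes with a mean FPKM of at least 5, with 1 point for each of the 3 normal and 3 PVR samples and a dash for each group mean. KCNV2 and KCNJ14 stand above the other 17 genes drawn in every sample, and within most genes the normal and PVR points lie side by side.

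The make-up by class differed little between the samples. The Kv1-Kv4 class held from 53.7% to 54.6% of the members' summed FPKM in normal retina and from 52.6% to 53.3% in PVR. The Kv10-Kv12 class stood at 4.99% ± 0.154 in normal and 5.63% ± 0.137 in PVR (SD, n = 3 each). In all, 5 of the 8 classes did not overlap between the groups. No such count was made for other sets of genes, so it has no background here. For single genes, the groups did not overlap in FPKM for 26.7% of all genes tested. Beside the lower Kv1-Kv4 and the higher Kv10-Kv12 share, the shares of Kv7 (1.68% to 1.95% in normal, 1.99% to 2.13% in PVR), of the inward rectifiers (14.25% to 15.17% and 15.21% to 15.7%) and of the calcium- or sodium-activated channels (at most 1.37% in normal and at least 1.38% in PVR) were higher in every PVR sample. The modifier, two-pore and KCNE shares overlapped. Shares add up to a fixed total, so a lower share of one class raises the others, and they were not tested.

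**Figure D3:**
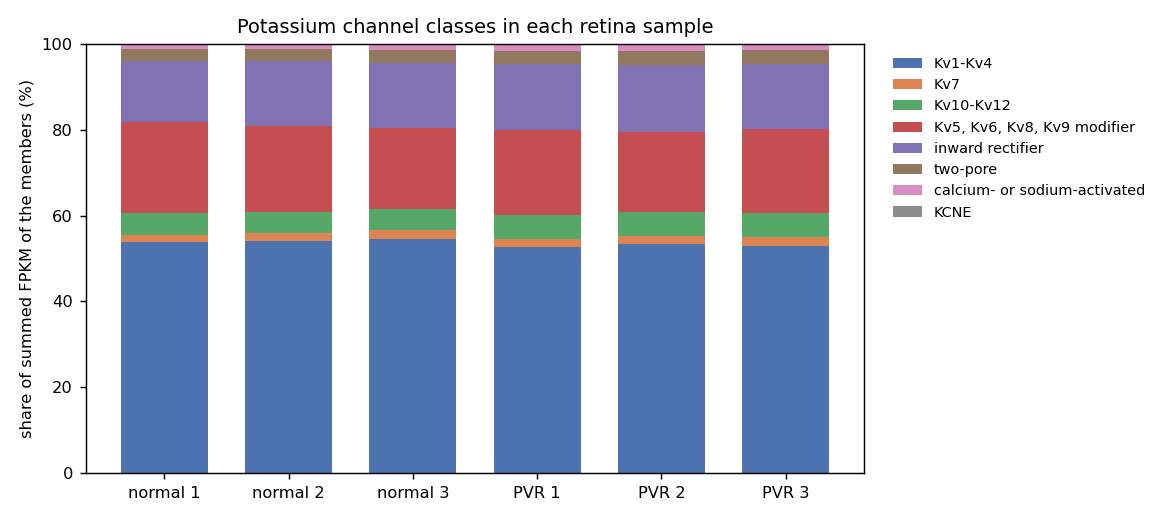
Share of the summed FPKM of the 78 potassium channel genes (%, y axis) held by each class in each of the 6 samples. The stacks are alike in all samples, with the Kv1-Kv4 class between 52.6% and 54.6% and the modifier class between 18.7% and 21.3%, and the KCNE class is too small to be seen.

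In the photoreceptor modifier KCNV2, the fitted value was lower in PVR and did not pass the adjusted p. KCNV2, the modifier Kv8.2, had 462, 399 and 396 CPM in normal retina against 367, 323 and 379 in PVR. The groups of KCNV2 did not overlap in CPM but did in FPKM, where the lowest normal sample had 114.0 and the highest PVR sample 114.8. Its log2 fold change was -0.23 (95% interval -0.48 to 0.01, adjusted p = 0.256 from edgeR). Rod markers lay on the same side as this gene. All 7 rod genes tested had negative fitted log2 fold changes, with a median of -0.31 and no adjusted p under 0.139, and their summed level was 40530 to 47820 CPM in normal and 28830 to 39680 CPM in PVR. All 7 cone markers also had negative fitted values, with a median of -0.26 and summed levels of 1407 to 2062 CPM in normal and 1228 to 1600 CPM in PVR. This side was not particular to photoreceptors. Fitted values were also negative for 6 of 7 bipolar, 6 of 7 amacrine, 8 of 9 ganglion and 2 of 4 horizontal cell markers. The medians of the first 3 lists were -0.01, -0.07 and -0.215. Of all genes with a mean FPKM of at least 5, 64.0% were lower in PVR. The part of photoreceptor RNA in the value of KCNV2 was not tested. KCNB2, which encodes Kv2.2, had a log2 fold change of 0.04 (95% interval -0.20 to 0.28). KCNH1, an ether-a-go-go channel, had 6.36, 5.99 and 5.53 CPM in normal against 4.53, 4.70 and 6.01 CPM in PVR, which overlap.

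Among the Kv1 genes, which encode low-threshold channels of axons and terminals, members stood on both sides of 0. KCNA6 had 73.1, 86.0 and 87.6 CPM in normal retina against 64.6, 70.5 and 56.5 in PVR. These did not overlap, though in FPKM the highest PVR sample, at 12.3, was above the lowest normal one. Its log2 fold change was -0.37 (standard error 0.11, 95% interval -0.62 to -0.11, adjusted p = 0.128 from edgeR). KCNA5 had 16.0, 16.6 and 20.7 FPKM in normal and 21.4, 21.7 and 22.1 in PVR, and KCNA3, a channel also known from lymphocytes and microglia, had 5.78, 4.88 and 6.07 and 6.32, 6.71 and 7.42. Both were higher in each PVR sample than in any normal one, but their log2 fold changes of 0.22 each had intervals that included 0 (-0.04 to 0.48 and -0.02 to 0.46). In CPM the margins were small. KCNA5 had 38.75 in the highest normal and 38.98 in the lowest PVR sample, and KCNA3 had 57.2 and 58.0. For KCNA1 and KCNA2, which are found on myelinated axons and in interneurons, the groups overlapped, with log2 fold changes of -0.30 (95% interval -0.71 to 0.11) and -0.17 (95% interval -0.47 to 0.14). Oligodendrocyte markers, at 264 CPM in normal replicate 1 and 1259 CPM in normal replicate 3, did not order these genes alike. KCNA1 was highest in normal replicate 1 and KCNA2 in normal replicate 3.

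Kv3 channels repolarize fast-firing neurons and Kv4 channels carry the A-type current. KCNC4, a Kv3 gene, had 510, 550 and 492 counts in normal retina against 278, 305 and 451 in PVR, or 13.4, 14.2 and 12.3 CPM against 8.50, 9.08 and 10.4 CPM. The groups did not overlap. The fitted log2 difference was -0.51 (standard error 0.15, 95% interval -0.86 to -0.16), and the adjusted p was 0.123 from edgeR (unadjusted 0.0101) and 0.0413 from DESeq2. Over all 15 alternatives its adjusted p went up to 0.395. The more abundant Kv3 genes overlapped between the groups, with log2 fold changes of -0.17 for KCNC1 (95% interval -0.42 to 0.07) and -0.06 for KCNC2 (95% interval -0.39 to 0.27). KCND3, the most abundant Kv4 gene, was at 19.1 ± 1.33 FPKM in normal and 18.6 ± 0.967 in PVR (SD, n = 3 each). Its standard error of 0.07 was the smallest among the abundant members, and its interval was -0.28 to 0.06.

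Kv7 channels carry the M-current, a brake on repetitive firing. KCNQ5, which is also found in the pigment epithelium, had 148, 261 and 251 counts in normal retina against 283, 334 and 364 in PVR. In CPM, that is 3.89, 6.71 and 6.28 against 8.65, 9.94 and 8.38, with no overlap. The log2 fold change was 0.68 (standard error 0.24, 95% interval 0.12 to 1.23, unadjusted p = 0.0234, adjusted p = 0.171 from edgeR), and none of the alternatives brought the adjusted p under 0.0781. Of the Kv10-Kv12 genes, the ether-a-go-go and related channels, KCNH5 was the most abundant, at 17.7 ± 1.56 FPKM in normal and 18.7 ± 1.69 in PVR (SD, n = 3 each), and its interval was -0.24 to 0.25. KCNH7 had 68.3, 52.0 and 58.9 CPM in normal against 68.5, 69.7 and 76.1 CPM in PVR, with an adjusted p of 0.234 from edgeR. KCNH6 had 30.6, 28.0 and 26.9 CPM in normal against 23.4, 23.9 and 25.7 CPM in PVR, with an adjusted p of 0.267. The groups of KCNH7 and KCNH6 did not overlap, and they lay in opposite directions.

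The modifier class held the lowest fitted value of all members. KCNS3, the modifier Kv9.3, had 131, 131 and 51 counts in normal retina against 20, 15 and 52 in PVR. Normal replicate 3, at 1.28 CPM, was next to PVR replicate 3, at 1.20 CPM, while the other normal samples had 3.44 and 3.37 CPM. The fitted log2 difference was -1.82 (standard error 0.53, 95% interval -3.06 to -0.59), and edgeR's adjusted p was 0.12 (unadjusted 0.00968). DESeq2 gave an adjusted p of 0.0197, and the range over the 15 alternatives was from there to 0.368. KCNG4, a modifier of Kv2 channels and after KCNV2 the most abundant of the class, had 65.0, 80.8 and 61.7 CPM in normal against 55.2, 43.5 and 59.1 CPM in PVR. Its groups did not overlap, and the log2 fold change was -0.39 (95% interval -0.74 to -0.05, adjusted p = 0.188 from edgeR). The other modifiers had 0 to 394 counts per sample.

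Among the inward rectifiers, 7 of 10 tested had negative fitted values and none had an unadjusted p under 0.05. KCNJ14, the strong rectifier Kir2.4, had 459, 439 and 505 CPM in normal against 413, 398 and 419 CPM in PVR. These did not overlap, but on the FPKM scale they did, since the lowest normal sample had 49.3 FPKM and 2 PVR samples were above it. The log2 fold change was -0.19 (95% interval -0.40 to 0.02, adjusted p = 0.269 from edgeR). KCNJ2, the strong rectifier Kir2.1, was at 4.56 ± 0.536 FPKM in normal and 4.84 ± 0.158 in PVR (SD, n = 3 each), with an interval of -0.25 to 0.29. The G-protein-gated channels KCNJ6 and KCNJ9 overlapped between the groups, with log2 fold changes of -0.12 (95% interval -0.38 to 0.15) and -0.18 (95% interval -0.52 to 0.17).

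KCNJ13 encodes Kir7.1, the apical potassium channel of the pigment epithelium. It had 569, 702 and 468 counts in normal retina against 607, 739 and 776 in PVR (log2 fold change 0.39, 95% interval -0.05 to 0.82, adjusted p = 0.281 from edgeR). Its groups overlapped in CPM, where normal replicate 2 had 18.1 and PVR replicate 3 had 17.9. In FPKM they did not, with 8.29 in the highest normal and 8.69 in the lowest PVR sample. The summed level of 8 pigment epithelium markers lay the other way, at 173 to 381 CPM in normal and 104 to 135 CPM in PVR, and 2 of the 7 tested, LRAT and TTR, were lower past an adjusted p of 0.05. Of the 7, 3 had positive fitted values. The part of pigment epithelium in the value of KCNJ13 was not tested.

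Two-pore channels carry the leak current. KCNK1, the most abundant per length, was at 11.8 ± 1.88 FPKM in normal and 11.9 ± 0.654 in PVR (SD, n = 3 each), with an interval of -0.41 to 0.31. KCNK6 had 76, 72 and 64 counts in normal and 75, 131 and 97 in PVR, and KCNK5 had 26, 24 and 35 and 29, 34 and 39. In CPM the groups of both did not overlap, but the margin was small for KCNK5, with 0.876 in the highest normal and 0.887 in the lowest PVR sample. The log2 fold changes were 0.63 (95% interval -0.10 to 1.36) for KCNK6 and 0.36 (95% interval -0.47 to 1.19) for KCNK5, with adjusted p of 0.291 and 0.586 from edgeR. Of the small-conductance calcium-activated channels, KCNN2 was the most abundant, with 6.73 ± 0.965 FPKM in normal and 7.51 ± 0.225 in PVR (SD, n = 3 each) and an interval of -0.17 to 0.35.

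KCNE4, a beta subunit that inhibits Kv1 channels when it joins them, had the highest fitted value of all members at very low counts. It had 1, 2 and 5 counts in normal retina against 14, 23 and 31 in PVR. The groups did not overlap. The fitted log2 difference was 3.10 (standard error 0.68, 95% interval 1.52 to 4.69), and edgeR's adjusted p was 0.0718 (unadjusted 0.00217), its lowest among the members. With limma on log2(FPKM + 0.1) the adjusted p was 0.0496, DESeq2 gave none, and the highest over the other alternatives was 0.259. Only its PVR counts let KCNE4 pass the filter on low counts, so its being tested depended on the group where it was high. The limma fit used the same filtered genes. Without the filter edgeR gave an adjusted p of 0.0819, and with at least 10 counts in every sample KCNE4 was left out. The pooled counts of 68 in PVR and 8 in normal gave a ratio of 9.50 per counted read (95% exact interval 4.56 to 22.9, counting error only). Pericyte and macrophage markers are given here because KCNE4 is also known from smooth muscle and immune cells. The 9 pericyte genes summed to 32.7 to 61.2 CPM in normal and 27.3 to 49.0 CPM in PVR, which overlap, whereas 5 macrophage and microglia genes summed to 23.5 to 40.3 CPM in normal and 53.7 to 63.2 CPM in PVR. Of the 9 pericyte genes, 5 had positive and 4 negative fitted values, with a median of 0.22. RGS5, a pericyte gene, was lower past an adjusted p of 0.05, with 133, 485 and 953 counts in normal and 3, 10 and 10 in PVR. Of the smooth muscle genes in this list, ACTA2 and CNN1 had the highest fitted log2 fold changes, 1.65 and 1.18. Neither passed it (adjusted p of 0.166 and 0.127 from edgeR), and the groups overlapped for ACTA2 but not for CNN1. TAGLN, DES and MYH11 had 0.95, 0.22 and -0.13, each with overlapping groups. None of the 5 macrophage and microglia genes, of 8 in the list, passed it. Their part in the value of KCNE4 was not tested.

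The other 17 members were too low to be tested. No count was found for KCNJ1 and KCNK16 in any sample, which allows a level of up to 0.0697 to 0.094 CPM per sample for 3 counts. KCNA7, KCNA10, KCNE1, KCNE2, KCNJ16 and KCNK18 had at most 3 counts in each sample. The other 9 had at most 24 counts. Among them KCNE5, chosen after its values were seen, had 6, 5 and 9 counts in normal and 0, 0 and 2 in PVR, a ratio of normal to PVR of 8.95 per counted read (95% exact interval 2.17 to 79.0, counting error only). Such an interval leaves out the spread between samples. For KCNJ4 and KCNE3, also chosen later, it was 1.76 to 20.5 and 0.217 to 0.784, though their groups overlapped in CPM.

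For some genes, single samples differed more than the groups did. The samples of 1 group were over 3-fold apart in CPM for 13 of the 61 members, or 21.3%, against 16.9% of all genes tested. KCNJ12, an inward rectifier chosen after its values were seen, had 165, 879 and 225 counts in normal and 166, 143 and 213 in PVR. Normal replicate 2, the sample with high lens genes, was thus at 22.6 CPM and the other samples at 4.26 to 5.63 CPM. The fitted log2 fold change of KCNJ12 was -1.19 with all samples and -0.07 without normal replicate 2 (adjusted p of 0.29 and 0.912 from edgeR). The part of lens RNA in the counts of KCNJ12 was not tested. KCNJ8, the pore of the vascular ATP-sensitive channel, had 11, 11 and 100 counts in normal and 36, 0 and 83 in PVR. Its interval of -3.03 to 2.99 covers both directions, and the fitted value was 1.82 without normal replicate 3 and -0.90 without PVR replicate 3. ABCC9, the sulfonylurea receptor that pairs with KCNJ8 in pericytes, had 28, 44 and 99 counts in normal and 32, 3 and 84 in PVR. In both genes normal replicate 3 was the highest and PVR replicate 2 the lowest sample. KCNK2, the mechanosensitive two-pore channel TREK-1, had 145, 134 and 265 counts in normal and 166, 65 and 309 in PVR, again with PVR replicate 2 lowest, and an interval of -1.08 to 1.14.

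**Figure D4:**
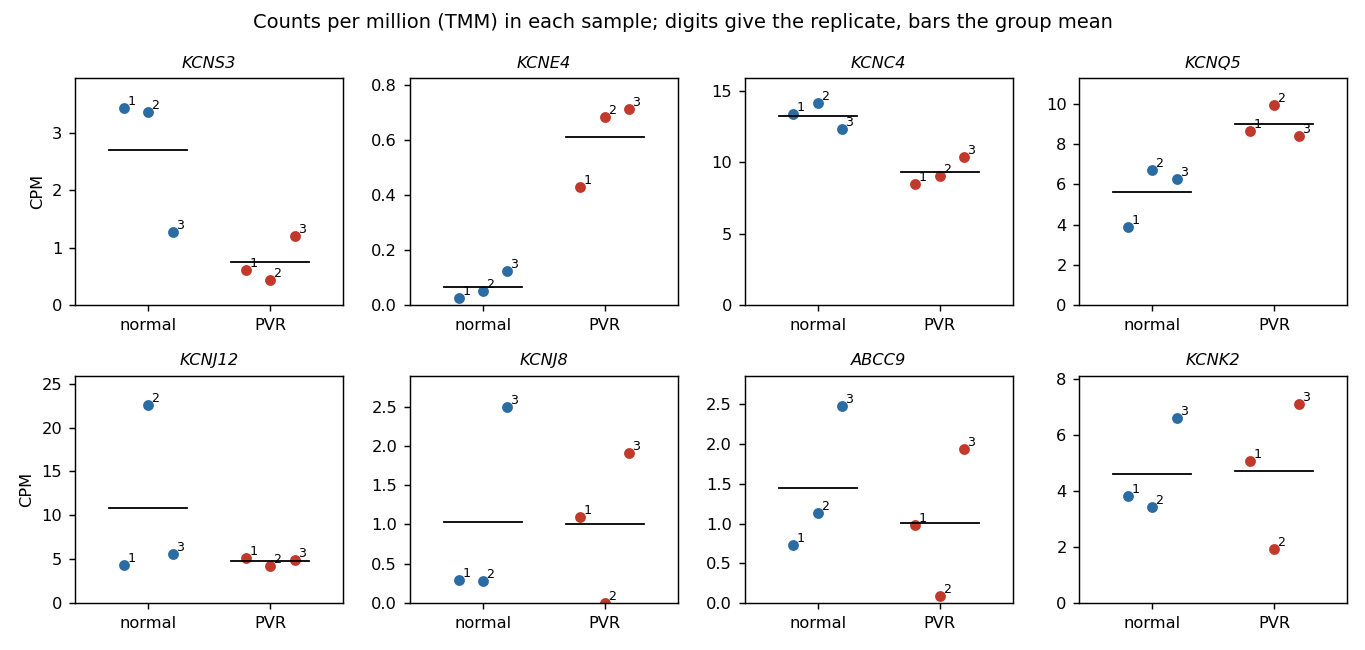
CPM (y axis, TMM-scaled) of 7 potassium channel genes and of ABCC9 in each sample, with the replicate number beside each point and a bar for each group mean. In the upper row the groups are apart but for KCNS3 nearly touch, and in the lower row normal replicate 2 stands above the rest of its group for KCNJ12 and normal replicate 3 for KCNJ8, ABCC9 and KCNK2, while the PVR samples of these 3 genes are spread out with replicate 2 lowest.

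Partner subunits and other potassium transport genes were also not called by edgeR. Of 39 such genes, 37 were tested, 0 passed an adjusted p of 0.05 with edgeR, and 5 had an unadjusted p under 0.05 (21.2% of all genes had). DESeq2 called 2 higher (KCNIP4 and SLC12A4) and 2 lower (KCNAB2 and LRRC55), where it called 9.69% of all genes. The median fitted log2 fold change was -0.11, with 15 higher and 22 lower. By group, fitted values were lower for 4 of 4 HCN channels, 2 of 2 sulfonylurea receptors, 5 of 7 sodium-potassium pump subunits and 6 of 10 Kv accessory subunits. They were higher for 5 of 6 cation-chloride cotransporters, and the 8 genes of the large-conductance channel were evenly split, with 4 higher and 4 lower. KCNMA1, the large-conductance calcium-activated channel, was at 28.4, 25.1 and 29.7 FPKM in normal and 27.7, 29.0 and 27.2 in PVR, with an interval of -0.26 to 0.14. KCNAB2, a beta subunit of Kv1 channels, had 21.4, 20.6 and 22.5 FPKM in normal and 19.0, 17.0 and 18.9 in PVR without overlap (log2 fold change -0.30, adjusted p = 0.0955 from edgeR). LRRC55, an auxiliary subunit of the large-conductance channel, had 252, 480 and 573 counts in normal and 123, 137 and 252 in PVR (log2 fold change -1.28, 95% interval -2.03 to -0.54, adjusted p = 0.0921 from edgeR). SLC12A4, a potassium-chloride cotransporter, had 332, 420 and 452 counts in normal and 489, 526 and 692 in PVR (log2 fold change 0.59, 95% interval 0.24 to 0.94, adjusted p = 0.0935 from edgeR).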

How the data were processed

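RNA from 3 normal and 3 PVR retina samples was analysed, grouped by the titles in the labels. HISAT2 (alignment to OryCun2.0) and htseq-count were used by the authors, who deposited the counts per gene without normalization. The strand setting and the annotation release are not given in the sources used here. The authors also deposited FPKM values, whose ratio to the counts gave 1 length per gene (largest relative difference 4.24e-09), so they rest on the same reads and the total count.

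The counts were analysed with edgeR 4.0.16 (R 4.3.3) after filterByExpr and TMM, with the condition as the single term and Benjamini-Hochberg adjustment over 18697 genes. The standard error is the log2 fold change divided by the square root of F, and 95% intervals use the total degrees of freedom. The thresholds of 0.05 and a log2 fold change of 1 follow the study's methods, which name DESeq2 as the test. Here edgeR was the main test and DESeq2 an alternative. The 15 alternatives used DESeq2 1.42.0 (on the genes that passed the filter, with p left without a value where it gave none), RLE and upper-quartile factors, no filter, at least 10 counts per sample, limma-voom (limma 3.58.1), limma with pseudocounts of 1 and 0.1 added to FPKM before log2, the replicate number as a block, and the fit without each of the 6 samples. The test was checked on simulated counts with 200 changed genes.

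Genes named are those with a mean FPKM of at least 5, the most abundant of each class, the 5 largest increases and decreases without overlap, members with a known place in the retina, partner genes past the threshold together with KCNMA1 and ABCC9, and others marked as chosen later. The remaining partners are given by count, while KCNAB2, LRRC55, SLC12A4 and KCNIP4 were named after their values were seen. The members and lists were chosen with earlier results of these data known. Some genes that this rule names are not reported here, though counts, medians and class shares include them. No genomic positions or sequences are given, since neither was used here.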

Additional observations from a re-analysis of the deposited data

How the results depend on the processing

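With all 6 samples, the number of potassium channel genes past an adjusted p of 0.05 was 0 with edgeR and 3 lower with DESeq2 (KCNC4 and KCNS3 among them, of which 1, KCNS3, also passed the fold threshold), and limma on log2(FPKM + 0.1) gave 1 higher, KCNE4, past both thresholds. It was 0 under the other 13 alternatives, each sample left out and the replicate block included, where between 0.114% and 3.39% of all genes passed. Partner and transport genes went from 0 to 2 higher and 2 lower with DESeq2. The median of the modifier class went from 0.05 to -0.20 both when genes under 10 counts in any sample were removed and with limma-voom. With single samples left out, class medians ranged from -0.19 to -0.037 for Kv1-Kv4, 0.0054 to 0.40 for Kv7, -0.17 to 0.074 for Kv10-Kv12, -0.11 to 0.068 for modifiers, -0.25 to 0.00040 for inward rectifiers and -0.13 to 0.32 for two-pore channels. Fitted log2 fold changes near 0 changed sign. With single samples left out they ranged from -0.045 to 0.14 for KCNB2, -0.18 to 0.080 for KCNC2, -0.079 to 0.074 for KCNH5, -0.054 to 0.078 for KCNJ2, -0.19 to 0.013 for KCNJ6, -0.90 to 1.82 for KCNJ8, -0.14 to 0.060 for KCNK1 and -0.40 to 0.40 for KCNK2. On log2(FPKM + 1) they were 0.011 for KCNC2, 0.023 for KCNJ8 and 0.027 for KCNK1, on log2(FPKM + 0.1) 0.013 for KCNC2, 0.030 for KCNK1 and -0.012 for KCNK2, and KCNK2 was at -0.054 with limma-voom. The cause was not tested. With the replicate block KCNK2 was at -0.092 and the counts of calls stayed at 0. Same-numbered samples deviated from their group means with correlations of -0.013, 0.073 and 0.042, so the numbers were not taken to pair them. The standard errors of members under a mean FPKM of 1 ranged from 0.20 to 1.29, the latter that of KCNJ8, whose samples differed widely within both groups. For genes without a count, the depth allows levels of up to 0.0697 to 0.094 CPM per sample.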

Other observations

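The following genes were singled out after their values were seen. PVR replicate 2 was the lowest of the 6 samples for 24 of the 61 potassium channel genes tested (39.3%), and for 26.1% of all genes tested. A pair of scarce channel genes had the same order in the PVR samples as KCNJ8. KCNF1, a modifier subunit, had 20, 0 and 27 counts in PVR replicates 1 to 3, and KCNS1, another modifier, had 17, 1 and 42. The normal samples of these genes had 12, 5 and 17 counts for KCNF1 and 19, 86 and 47 for KCNS1. The summed level of pericyte markers was lowest in PVR replicate 2, at 27.3 CPM, and highest in normal replicate 3, at 61.2 CPM. Not every gene of that list had this order. RGS5 was lowest in PVR replicate 1, at 0.092 CPM, and CNN1 in normal replicate 1, at 0.525 CPM. MYH11 was highest in PVR replicate 2, at 3.39 CPM. The part of pericytes in the values of KCNF1, KCNS1 and KCNJ8 was not tested.

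KCNK13 encodes THIK-1, the two-pore channel through which microglia leak potassium. It had 9, 26 and 11 counts in normal and 25, 38 and 26 in PVR, which overlapped in CPM at normal replicate 2 (0.669) and PVR replicate 3 (0.599). The log2 fold change was 1.07 (95% interval -0.22 to 2.36, adjusted p = 0.305 from edgeR). All 5 microglia and macrophage markers in the files had positive fitted values, with a median of 0.86, and none passed an adjusted p of 0.05. Their part in the value of KCNK13 was not tested.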
